A study of Mus musculus with 4 samples.

Results

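The genes described here are 10 components of the mouse inflammasome pathway, listed by name and not by any measured value: the sensors Aim2, Nlrp3, Nlrp1a and Nlrp1b, the adaptor Pycard, the caspases Casp1, Casp4 and Casp8, and the cytokines Il1b and Il18. The list was drawn up with earlier results of these data known. All 10 genes were found among the 21631 protein-coding genes of chromosomes 1 to 19 and X in the RefSeq table. They were examined for Malat1 ChIRP peaks, and 15 of the 77823 deposited peaks had their summit inside one of these genes or at most 5 kb from it. In ChIRP, or chromatin isolation by RNA purification, labelled antisense probes pull an RNA out of sonicated nuclei, and the DNA attached to it is sequenced. The labels give 4 libraries from the breast cancer cell line 4T1-TGL (mouse, strain BALBC), all of genotype WT and grown in DMEM/F12: a Malat1 pull-down with Even probes, one with Odd probes, one with Lacz probes, which target no mouse RNA and serve as the usual control, and an Even input. The deposited peaks come from 1 merged treatment of 851227 tags compared with 1 input of 50030325. At this depth 3 tags stacked at a summit already give a fold of 179.5 where the input is average, so the fold of a small peak rests on few tags. Which pull-downs entered the merge is not stated in the labels or headers, so no value has a replicate error and the probe pools were not compared. Whether the Lacz pull-down was used, and how, is not stated either. No peak described here, that of Aim2 included, was separated from signal that the Lacz probes also pull down. The line is 1 cell line, and DNA peaks measure no expression, so neither its cell type nor the activity of these genes could be checked.

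An inflammasome is a protein complex that assembles in the cytosol when a sensor meets a sign of infection or damage. The sensor recruits the adaptor ASC, encoded by Pycard, which gathers and activates caspase-1, and caspase-1 then cleaves the precursors of interleukin 1 beta and interleukin 18 as well as gasdermin D, the pore-forming protein of pyroptosis. Malat1, a long noncoding RNA, is abundant in nuclear speckles, and the pull-down asks at which positions of the genome it is found.

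Of the 15 peaks, 1 lay over an annotated transcription start of its own gene, that of Il18. Its promoter is shown for that reason: 250 bases before the start and 30 after it, chr9:50554450-50554729 of GRCm38.p6, plus strand, from RefSeq, with the 35 printed bases that lie inside the peak in capitals.
Il18: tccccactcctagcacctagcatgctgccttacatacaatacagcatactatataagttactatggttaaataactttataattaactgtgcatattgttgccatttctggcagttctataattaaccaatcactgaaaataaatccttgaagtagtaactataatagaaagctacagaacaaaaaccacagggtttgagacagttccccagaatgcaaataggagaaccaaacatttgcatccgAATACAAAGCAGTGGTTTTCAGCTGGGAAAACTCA
The peak began 5 bases before the start and reached on into the gene, with its summit 122 bp after the start. The full promoter window, of 300 bases, had a GC content of 36.7% and 1 CpG. A search of both strands of the window for 4 motifs found 1 match to TATAAA and 1 to CCAAT, which did not overlap. They began at bases 76 and 127 of the window, and the TATAAA match was on the minus strand, opposite to the gene. It found no match to TGANTCA (AP-1-like) or CACGTG, which is 1 form of the E-box. Other forms of the E-box were not searched for. Over the 21045 promoter windows of protein-coding genes, TATAAA was present in 12.7%, CCAAT in 38.5%, TGANTCA in 7.04% and CACGTG in 7.91%. A peak lay over a promoter window of 1 of the 10 genes, against 2.12% of the 17274 protein-coding genes that have such a window.

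Peaks were present at 5 of the 10 genes: Aim2 with 5 summits, Il1b and Il18 with 3 each, and Nlrp1a and Casp8 with 2 each. No summit lay at Nlrp3, Nlrp1b, Pycard, Casp1 or Casp4. The same window held a summit for 60.8% of all protein-coding genes, so the share among the 10 was not higher than the background. A peak of at least 10 tags, the sequenced fragments of the merged pull-down counted in the peak, was present at 3 of the 10 (Aim2, Il1b and Il18) and at 25.9% of all protein-coding genes. Of the 15 summits, 12 lay inside a gene body and 3, all at Il1b, lay beyond its 3′ end.

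**Figure D1:**
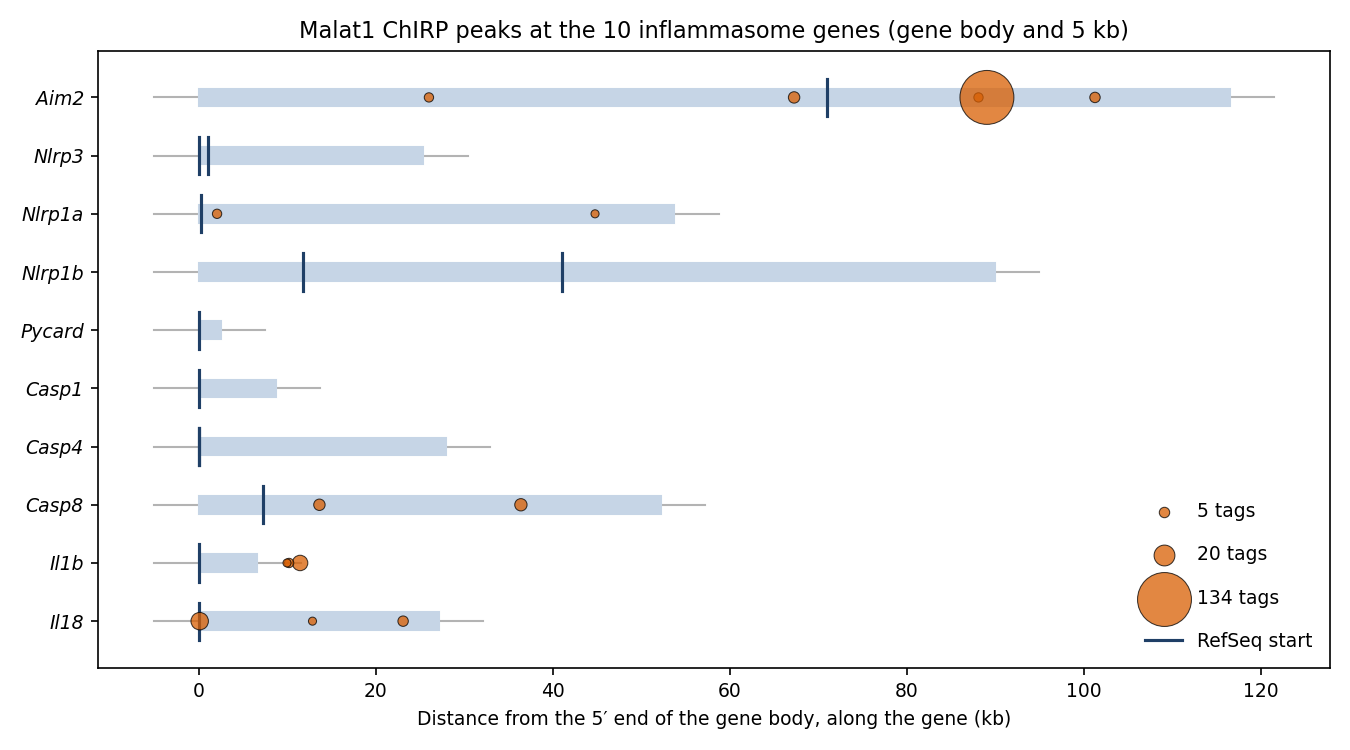
Peaks along each of the 10 genes, drawn from the 5′ end of the gene body in kb (blue bar, body; grey line, 5 kb on either side; dark ticks, starts in the RefSeq promoter table; circle area, treatment tags). The 134-tag peak of Aim2 stands beyond the listed start, the 3 peaks of Il1b lie past its 3′ end, and 5 genes carry no circle.

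Among the sensors, Aim2 carried the strongest signal. AIM2 binds double-stranded DNA in the cytosol. Its gene (chromosome 1, 173349547 to 173466040, GRCm38, gene ID 383619, plus strand) spans 116.494 kb in the RefSeq table, and the start in the promoter table lies 71.1 kb into that span. Of its 5 peaks, 4 were small, with 4, 6, 4 and 5 tags in order along the gene and folds of 133, 106, 150 and 140 over input (fold is the authors' ratio of the summit height to the local scaled input). The fifth, at 173438396 to 173438953, held 134 tags over 558 bp with a fold of 1088, rank 19 of all peaks. It lay 18.0 kb beyond the listed start, at 76.5% of the gene body. Of the whole list, 98 peaks held more tags. Its summit height, the pileup of tags at the summit, was 21, where the highest in the list is 22. A height of at least 21 was shared by 170 peaks of the list. The implied input, the local input level obtained from height and fold, was 1.15 times the genome mean.

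The large Aim2 peak stood apart from its surroundings, while the other peaks of the gene did not. None of the 52 peaks in the 1 Mb flanks held as many tags, the highest being 47 in a peak nearest to Vsig8, and none reached its fold. Of the 4 small Aim2 peaks, each had between 17 and 28 flank peaks above it in tags. The gene window held 1.21 tags per kb in peaks, against 0.211 in the flanks. Without the large peak it held 0.150. At a density of 0.240 tags per bp the peak was exceeded by 12 of the 1019 peaks longer than 500 bp, whose median density was 0.0860. Peaks were more frequent on the lower-coordinate side of the gene (38 summits) than on the other (14). By number of summits, Aim2 held 5 where its flanks predicted 3.29 (two-sided exact binomial p = 0.39, 1 after Benjamini-Hochberg adjustment over the 21420 genes tested). Aim2 belongs to a family of related neighbouring genes, and the treatment of reads that match several places is not stated in the headers or labels, so its tags are uncertain to that extent.

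The NLRP1 genes encode sensors, of which NLRP1B is activated by pathogen proteases, and lie in tandem on chromosome 11. They held 2 summits in Nlrp1a and 0 in Nlrp1b. The difference between them was not tested. Nlrp1a (71091197 to 71144969, gene ID 195046, minus strand) held 2 weak peaks. The first, at 71142752 to 71142926, had 4 tags, a fold of 120 and its summit 1.82 kb past the start, and the second, at 71100146 to 71100253, had 3 tags and a fold of 106. The flanks predicted 2.07 summits. Nlrp1b (71152574 to 71242514, gene ID 637515, minus strand), which is longer, held none where 3.35 were predicted (exact binomial p = 0.078, 1 after adjustment). The stretch without a summit ran from the first Nlrp1a peak across Nlrp1b for 223 kb, and 1.02% of the 77693 gaps between neighbouring summits were as long. That share counts gaps, and a long gap covers more bases than a short one, so the share of bases in such gaps is larger. The strongest peak of the region, with 82 tags and a fold of 696, lay at 71064850 to 71065477, 26.0 kb beyond the 3′ end of Nlrp1a and outside its window. The NLRP1 genes are close copies of each other, so the division of reads between them is uncertain.

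Nlrp3, the sensor that responds to potassium loss and many forms of cell damage (chromosome 11, 59541569 to 59566955, gene ID 216799, plus strand), held no summit where 1.398 were predicted (exact binomial p = 0.65, 1 after adjustment). The strongest peak of its flanks was also the nearest. It lay at 59533519 to 59533805, 7.93 kb before the 5′ end of the gene, with 26 tags and a fold of 658. It therefore counted for Nlrp3 with a window of 20 kb and not with one of 5 kb. On the other side the next summit was 26.8 kb away and had 4 tags. The peaks closest to the window limit at other genes were the Il1b peak at 4.87 kb, which was counted, and peaks at 5.20 kb from Casp8 (4 tags, fold 145) and 5.34 kb from Aim2 (6 tags, fold 95.1), which were not.

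The adaptor and the inflammatory caspases held no peak. Pycard (chromosome 7, 127991373 to 127993867, gene ID 66824, minus strand) is a gene of 2.50 kb for which 0.437 summits were predicted, so an absence says little at this depth. Its flanks included a peak of 116 tags and a fold of 938 at 127950346 to 127950952, nearest to Prss36 and 40.8 kb from Pycard. Casp1 (chromosome 9, 5298517 to 5307281, gene ID 12362) encodes the caspase that matures the cytokines, and Casp4 (5308849 to 5336791, gene ID 12363) encodes the mouse enzyme also called caspase-11, which senses lipopolysaccharide in the cytosol. They lie side by side on the plus strand and their windows overlap. The flanks predicted 0.441 and 0.873 summits for them, both under 1, so that an absence again says little. Both, with Casp12 beside them, sat in a stretch of 313 kb with no summit, and 0.457% of all gaps were as long. This is again a share of gaps and not of bases. That stretch was bounded by a 3-tag peak and a 5-tag peak. The flanks of Casp1 held 23.5 summits per Mb, against 44.1 for chromosome 9. The peak with the most tags there, 58 with a fold of 672, lay 480 kb past Casp4. Its nearest protein-coding gene, Pdgfd, was 351137 bp away.

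Casp8, an initiator caspase of death receptor signalling that can also be recruited to inflammasomes, held peaks of moderate size. Its gene (chromosome 1, 58795233 to 58847503, gene ID 12370, plus strand) had a peak of 6 tags and a fold of 193 at 58808844 to 58808978 and one of 7 tags and a fold of 239 at 58831544 to 58831701. Their summits lay 6.38 and 29.1 kb past the listed start. The implied input was 1.24 at the first and 1.00, the lowest value that any peak of the list takes, at the second. Of the 71 flank peaks, 8 had a higher fold than the second and 22 held more tags. The flank peak with the most tags, 28, lay inside Aox2. The 2 summits compare with 2.21 predicted, a ratio of 0.905 (exact binomial p = 1).

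The cytokine genes held more summits than their flanks predicted, without passing the adjusted threshold. Il1b (chromosome 2, 129364569 to 129371164, gene ID 16176, minus strand), which encodes the fever-inducing cytokine interleukin 1 beta, had 3 summits where 0.697 were predicted. That gives a ratio of 4.30 (exact binomial p = 0.035, 0.859 after Benjamini-Hochberg adjustment over all genes tested). The test takes summits as independent, and these 3 lay close together, so this p is uncertain to that extent. The ratio was 2.36 among peaks at or above the median fold and 1.515 with a window of 20 kb, and in these and 3 other of the 8 alternative settings the unadjusted p was above 0.05. None of the 3 lay in the gene body. They stood 3.39, 3.63 and 4.87 kb beyond its 3′ end, within 1.48 kb of each other. In that order they held 3, 4 and 11 tags with folds of 47.5, 73.8 and 279. The strongest, at 129359620 to 129359829, was exceeded in tags by 20 of the 84 flank peaks, of which the largest, near Fbln7, held 52. The weakest had the highest implied input of all 15 peaks, 2.52 times the genome mean.

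Il18 (chromosome 9, 50554700 to 50581841, gene ID 16173, plus strand), which encodes an inducer of interferon gamma, had 3 summits where 0.891 were predicted. The ratio was 3.37 (exact binomial p = 0.066, 1 after adjustment). Its flanks held 24.0 summits per Mb, against 44.1 for chromosome 9, and against the whole chromosome the ratio was 1.83 (exact binomial p = 0.227). With the gene body alone it was 4.70 (exact binomial p = 0.0295, 0.896 after adjustment). In every other alternative setting the unadjusted p was above 0.05. All 3 summits lay inside the gene, at its start, its middle and towards its 3′ end. The start peak, at 50554695 to 50554977, held 14 tags, the most of any peak here after that of Aim2, with a fold of 142. It also lies inside Bco2, a carotenoid oxygenase gene that overlaps this end of Il18. Of the 48 flank peaks, 5 held more tags and 34 had a higher fold. The largest of them, inside Ppp2r1b, held 39 tags. The implied input at this peak was 2.10, against a median of 1.13 in the flanks. The other peaks had 3 tags with a fold of 128, at 50567519 to 50567620, and 5 tags with a fold of 191, at 50577744 to 50577848.

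**Figure D2:**
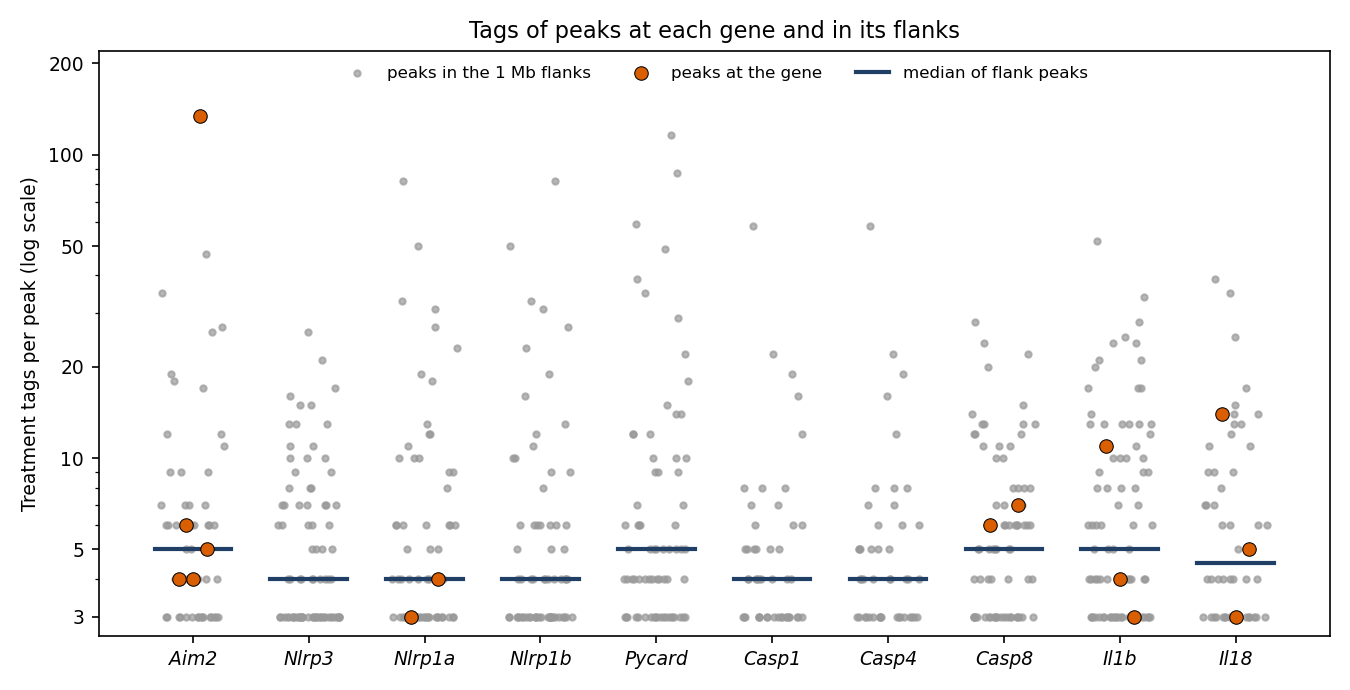
Treatment tags of each peak (log axis) at each gene (orange) and in the 1 Mb on either side of its window (grey), with the median of the flank peaks as a bar. The Aim2 peak of 134 tags lies above all its flank peaks, and the other orange points lie within the range of the grey ones.

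As a set, the 15 peaks resembled the whole list in size except for the 1 at Aim2. Their median was 5 tags, as over all peaks, and their median fold 140, against 133. Peaks of 3 tags, the fewest of any peak, made up 3 of the 15 (20%) and 37.2% of the whole list. The implied input ran from 1.00, which is also the floor of the whole list, to 2.52. Its median was 1.28, against 1.403 over all peaks. The large Aim2 peak held 134 of the 213 tags in the 15 peaks (62.9%, 95% Wilson interval 56.2 to 69.1, counting error only and taking tags as independent). No other peak at these genes held more than 14 tags.

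The number of summits over the 10 genes was close to that of their surroundings. With overlapping windows joined, the 10 genes formed 8 loci with 15 summits, where their flanks predicted 15.5. The ratio was 0.965 (95% exact binomial interval 0.536 to 1.61, which takes summits as independent). By gene, 3 lay above the prediction (Aim2, Il1b and Il18) and 7 below it. The median ratio of the 10 genes was 0.452, against 0.765 over all protein-coding genes. None of the 10 passed the exact binomial test after adjustment over all genes, and 1, Il1b, had an unadjusted p under 0.05. The largest prediction was 3.35, for Nlrp1b, where 0 summits gave an exact binomial p of 0.078. In this setting the test could therefore not call any of the 10 lower, even unadjusted. Over all genes 0.0794% passed as higher and 0.042% as lower after adjustment, and 4.73% were higher and 0.546% lower at an unadjusted p under 0.05. These p-values describe the positions of summits in 1 list and not the spread between libraries.

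**Figure D3:**
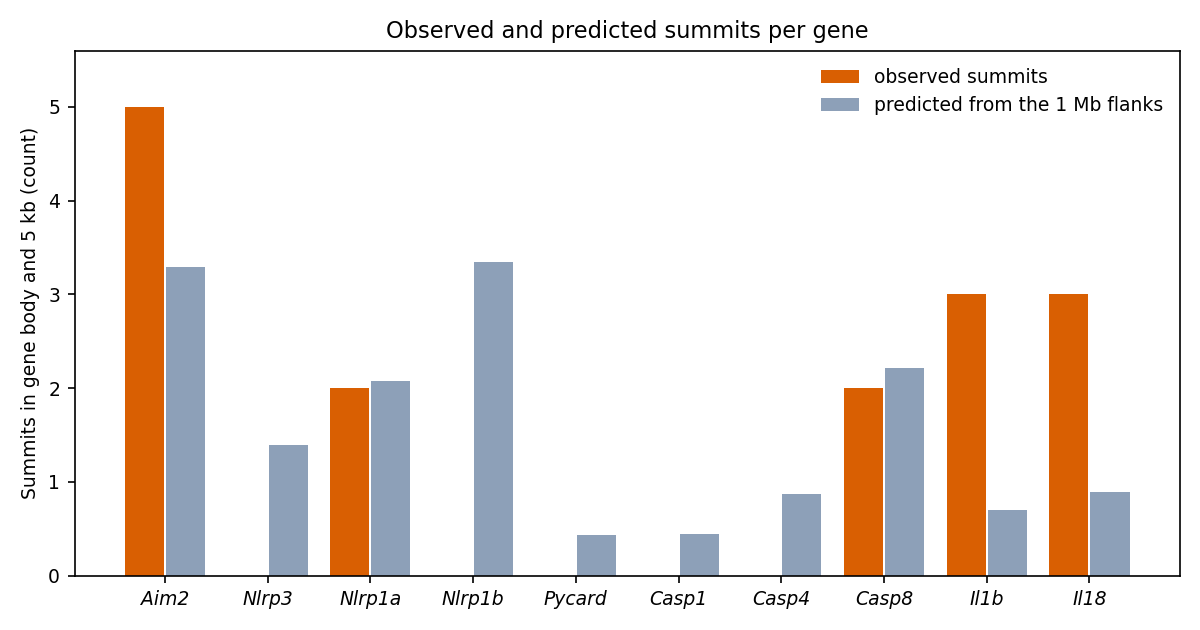
Summits counted in the body and 5 kb of each gene (orange bars) beside the number its 1 Mb flanks predict (grey-blue bars). Aim2, Il1b and Il18 exceed their prediction, and Nlrp1b has 0 against 3.35.

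Other genes of the pathway, grouped into 6 lists, were also near the background. Of 62 genes, 40 (64.5%) had a summit, against the 60.8% of all protein-coding genes, and they held 82 summits where their flanks predicted 85.3, with a summit in overlapping windows counted for each gene. None of the 62 passed the exact binomial test after adjustment in either direction. An unadjusted p under 0.05 was found for 3 of the 62, where 4.73% of all genes tested were higher and 0.546% lower. These 3 were Irf1, a transcription factor of the interferon response (4 summits, 0.689 predicted), the sensor gene Nlrp10 (3 and 0.503) and Ifi203 (3 and 0.536), all higher. They are named here for that p, after their values were seen.

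The neighbours of Aim2 in the AIM2-like receptor cluster, which encode further DNA-binding interferon-inducible proteins, had a summit at 5 of 12 genes, with 8 summits where 6.92 were predicted. The highest folds were at Mndal (598, 17 tags), Ifi214 (180, 5 tags) and Ifi203 (142, 7 tags). The tags in all peaks of these 12 genes summed to 49, against 134 in the large Aim2 peak alone. Other sensors had a summit at 7 of 12, led by Nlrp10 (fold 333, 13 tags), Nlrp9b (148, 6 tags) and Nlrc4 (144, 3 tags), the partner of the NAIP flagellin sensors. These gene families also hold close copies.

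Partners of caspase-8 had a summit at 4 of 7. Zbp1, a sensor of Z-form nucleic acids, led with a fold of 536 and 32 tags, followed by Cflar, the neighbour of Casp8 that encodes the inhibitor FLIP (355, 13 tags), and Mlkl, the pore former of necroptosis (180, 3 tags).

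Interleukin 1 family receptors had a summit at 8 of 8 genes, with 20 summits where 22.8 were predicted. Of the 8, 6 lie side by side on chromosome 1, where the summits of neighbours can share windows. Il1rl1, the receptor for interleukin 33, held 102 tags in a peak of fold 815, the largest of these lists. Sigirr, an inhibitory receptor, had a fold of 566 (16 tags) and the decoy receptor Il1r2 one of 510 (41 tags). Other ligands and antagonists had a summit at 5 of 8, led by the receptor antagonist gene Il1rn (fold 277, 40 tags), Il1f10 (219, 14 tags) and Il1f9 (203, 24 tags).

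Genes of priming, licensing and release had a summit at 11 of 15, with 26 where 21.8 were predicted. The highest folds were at the guanylate-binding protein gene Gbp5 (302, 12 tags), the gasdermin gene Gsdme (211, 5 tags) and the channel gene Panx1 (205, 8 tags).

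**Figure D4:**
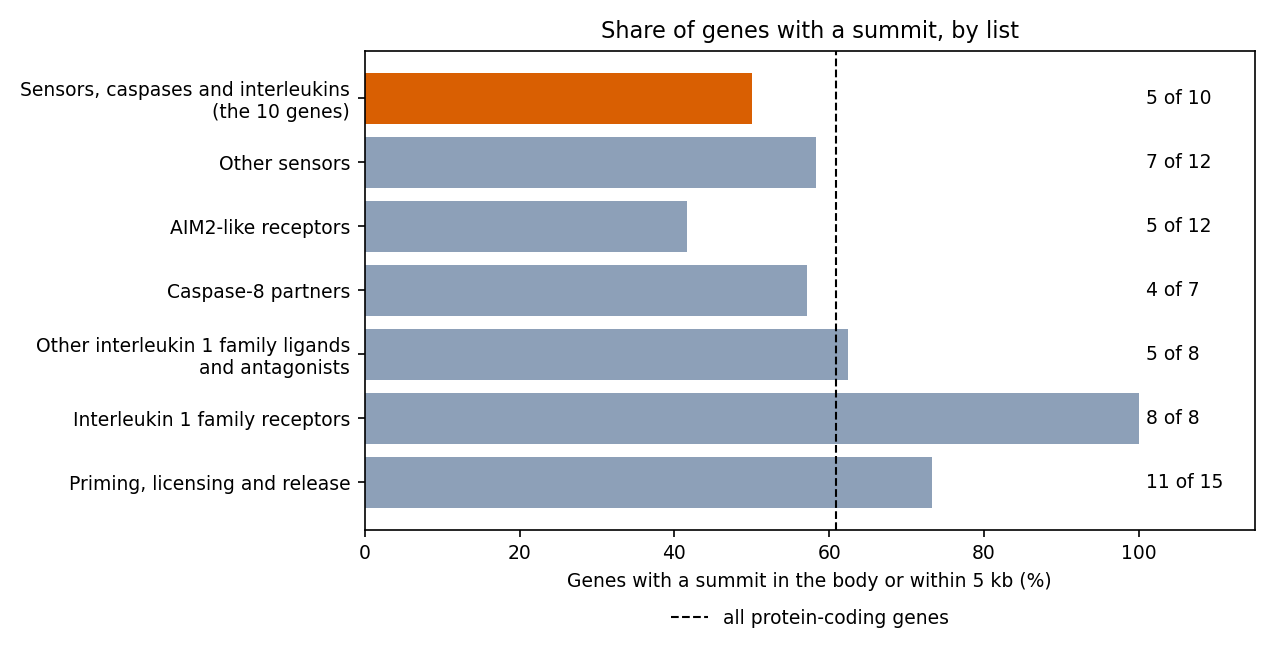
Percent of genes that hold a summit within 5 kb or inside them, for the 10 genes (orange) and the 6 other lists (grey-blue), with counts at the right and the share of all protein-coding genes as a dashed line at 60.8%. Receptors reach 8 of 8 and AIM2-like receptors 5 of 12.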

How the data were processed

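Per the labels' protocols, single reads of 76 nt were sequenced from ChIRP of sonicated nuclei. A tag size of 25 is given in the peak file header instead, and this difference was not resolved here. Per the file headers, the authors ran MACS 1.4.4 on 1 merged treatment (851227 tags after duplicate removal) and 1 input (50030325 tags, 58.8 times as deep), with a p cutoff of 1e-05; no source used here names the aligner. Per the submitters' processing notes, reads were placed on mm10 (GRCm38). The deposited tag counts are whole treatment tags per peak, and the deposited fold is the ratio of summit height to local scaled input. The summit height is the deposited pileup signal, the deposited score is a scaled log of the MACS p and was not used beyond comparing the lists, and in percent the deposited false discovery rate of each peak is 0. Position, score and summit were identical in the 3 deposited lists for 77823 of 77823 peaks. Folds and tags are the authors' values of single peaks.

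The implied input is height divided by fold, over the genome mean of 0.0167 tags per fragment. Its lowest value over the whole list was 1.00, and 7254 peaks lay within 0.1% of the genome mean. A value of 1.00 is therefore a floor, and an input below the mean would not show. Genes and promoters came from RefSeq GRCm38.p6, the C57BL/6J reference, while the cells are BALBC; exons were not used here, so summits are placed only in or outside gene bodies. A peak belonged to a gene when its summit lay in the body or within 5 kb. Predicted summits are those of the 1 Mb on each side times the window's share of bases. Every protein-coding gene was tested by a two-sided exact binomial test with Benjamini-Hochberg adjustment (Python 3.11.15, SciPy 1.17.1). The code was run on simulated counts drawn independently, so clustering of summits was not simulated. Every one of the 10 genes was named; of each other list, up to 3 genes of the highest fold and any gene passing the test, and in the flanks of each of the 10 the peak with the most tags, by its nearest gene. The members and lists were chosen with earlier results of these data known. Of 65 listed names, 62 genes were matched; Mnda and Pyhin1 are older names of Ifi211 and Ifi209, and Il36rn was not matched. A further list, of other caspases, is not reported here.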

Additional observations from a re-analysis of the deposited data

How the results depend on the processing

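Alternatives were peaks at or above the median fold, of at least 4 or 10 tags, the gene body alone or with 20 kb, any overlap of 1 bp, flanks of 500 kb and the whole chromosome. In all 8, none of the 10 genes passed the adjusted threshold. Over the 8 the smallest adjusted exact binomial p of any of the 10 was 0.429, against the whole chromosome. It was that of Nlrp1b, which was lower there with an unadjusted exact binomial p of 0.0262. Against the whole chromosome Il1b was higher, with an unadjusted exact binomial p of 0.0277. Over all genes, 17 passed as higher and 9 as lower, against 0 and 0 at the median fold, 51 and 23 with 20 kb, 8 and 3 with flanks of 500 kb and 241 and 25 against the chromosome; with the body alone 4 passed as lower, and with at least 10 tags 11 as higher. Genes with a summit numbered 3 of the 10 with peaks of at least 10 tags (25.9% of all genes), 4 with the gene body alone (47.9%) and 7 with 20 kb (79.4%). The other listed genes with a summit fell from 40 to 17 with peaks of at least 10 tags. The ratio over the 8 loci ran from 0.792 to 1.21. Of 40 values for the 5 genes with a summit, 33 kept their direction; the 5 genes without one are left out of this count, since most of the alternatives cannot add a summit. The ratio of Casp8 turned to 1.08 with the body alone, 1.57 at the median fold, 1.31 with at least 4 tags and 1.04 against the chromosome. That of Nlrp1a turned to 1.16 with the body alone and 1.36 with flanks of 500 kb, and that of Il1b to 0 with the body alone, since its peaks lie outside it. With 1 merged list, a summit height of 3 tags at the median peak limits what can be seen at genes of few predicted summits. No paired analysis was possible because each group has 1 library and the deposited values are merged.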
